A study of Arvicanthis niloticus with 5 samples.

Results

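The alpha crystallins and the other small heat shock proteins were examined in RNA of the Nile rat eye. The members are the 9 genes Cryaa, Cryab, Hspb1, Hspb2, Hspb3, Hspb6, Hspb7, Hspb8 and Hspb11, found by symbol, without regard to case, in any species column of the authors' ortholog table. All 9 were found, on 11 transcripts, among 13982 genes with a symbol. The Nile rat, Arvicanthis niloticus, is a day-active African rodent. The labels list 5 wild-type eye samples in 1 group, with no age, sex or treatment. They state that several RNA samples of the species were pooled for 1 library. A single column of values, from 64967222 mapped fragments, stands for the whole series, so there is no spread between animals, no contrast between groups and no test. Intervals in brackets are 95% intervals for the counting error of fragments alone. Levels are in FPKM (fragments per kilobase of transcript and per 1000000 fragments mapped), and the level of a gene is the sum over its transcripts.

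Small heat shock proteins are chaperones built around a conserved alpha-crystallin domain. They assemble into large oligomers and hold unfolding proteins in a soluble state without using ATP, until ATP-dependent chaperones refold them. In the lens, whose fibre cells lose their organelles and cannot replace their proteins, the alpha crystallins Cryaa and Cryab are both structural, refractive proteins and chaperones. Cryaa is largely a lens gene, whereas Cryab is also known in muscle, heart and glia, and several of the remaining members are best known from striated or smooth muscle.

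The 9 members spanned a wide range, with the alpha crystallins at the top. Cryab was highest at 2894 FPKM [2871 to 2918] and Hspb3 lowest at 1.61 FPKM [1.27 to 2.02], a 1792-fold range. In order, the levels were those of Cryab, Cryaa, Hspb1, Hspb6, Hspb8, Hspb11, Hspb2, Hspb7 and Hspb3. Neighbours in this order differed beyond their counting intervals, except Hspb2 and Hspb7. The median of the members was 13.8 FPKM, the level of Hspb8, against 6.50 FPKM over all named genes. Of the 9 members, 6 lay above that median of all named genes, and Hspb2, Hspb7 and Hspb3 lay below it. All 9 reached FPKM 1, as did 93.2% of all named genes, so this count says little about the members. The other thresholds gave 9 members at FPKM 0.5 (99.0% of named genes) and with any fragment (100%), 7 at FPKM 5 (59.8%), 5 at FPKM 10 (34.0% of named genes), 3 at FPKM 100 (2.21%) and 2 at FPKM 1000 (0.0930%). Of the FPKM of all named genes, 1.83% [1.82 to 1.84] lay on the family. This share was 0.326% by fragments, 0.207% without transcripts of under 500 nt, 0.216% with symbols in at least 2 species and 3.08% with an effective length. The rule of 2 species left out both alpha crystallins. Of the FPKM of all transcripts, with or without a symbol, the family held 0.329%. By fragments, without the division by length, Hspb8 was followed by Hspb7, Hspb2 and Hspb11, and the other places did not change. In whole-eye RNA, fewer cells of a type and less RNA per cell cannot be told apart.

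**Figure D1:**
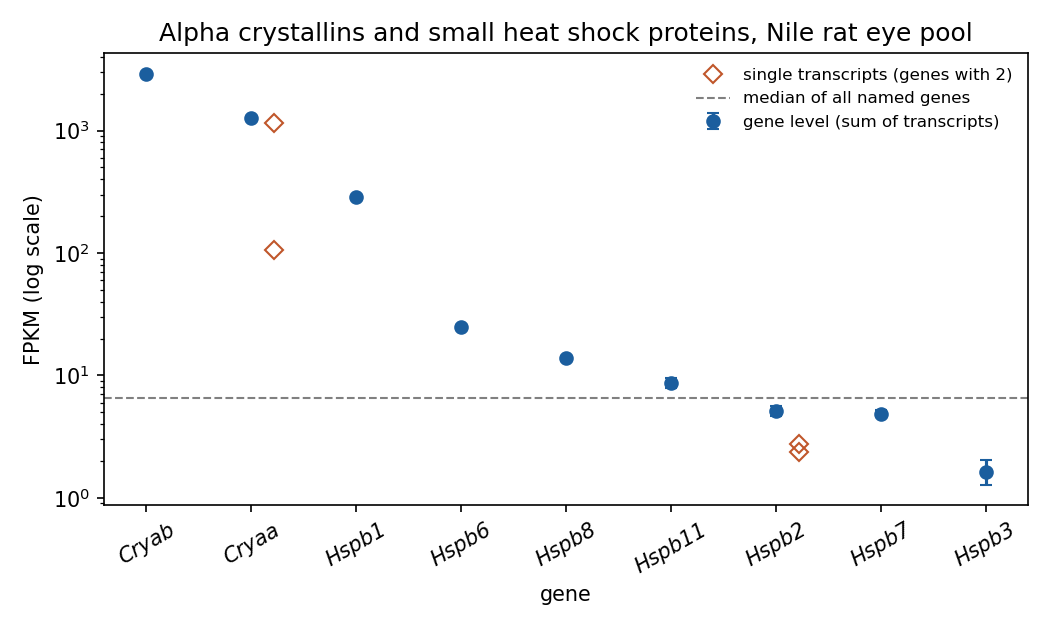
Level of each member in the eye pool (FPKM, log scale), with 95% counting intervals as bars, which are smaller than the symbols for most genes. Diamonds mark the 2 transcripts each of Cryaa and Hspb2, and the dashed line is the median of all named genes, 6.50 FPKM. Cryab, Cryaa and Hspb1 stand above 100 FPKM and the other 6 genes below 25 FPKM.

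The alpha crystallins dominated the family. Cryab and Cryaa together held 92.3% [92.2 to 92.4] of the family's FPKM, Hspb1 held 6.40% [6.29 to 6.51] and the other 6 members together held 1.31% [1.28 to 1.34]. Cryab alone held 64.3% and Cryaa 28.0%. In fragments, with no division by length, the share of the alpha crystallins in the family was 79.3% [79.1 to 79.6].

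Cryab, which encodes alpha-B crystallin, ranked 3 among the 13982 named genes by FPKM and 17 by fragments. It rested on 1 transcript of 309 nt with 58103.5 estimated fragments, which carried the symbol in the rat column alone, with Ensembl identifiers for mouse and human. Cryaa, which encodes alpha-A crystallin, stood at 1263 FPKM [1246 to 1280] and ranked 12 by FPKM and 95 by fragments. Its level was the sum of a transcript of 249 nt, named in human only, at 1158 FPKM [1142 to 1175] and another of 676 nt, with the symbol in the mouse column, at 105 FPKM [102 to 108]. The short transcript thus carried 91.7% of the level. The transcripts of 249 and 309 nt are shorter than the coding sequences of these proteins, so each can hold only a piece of its mRNA. Of all named transcripts, 99.1% were longer than 249 nt and 97.9% longer than 309 nt.

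The ratio of Cryab to Cryaa was 2.29-fold [2.26 to 2.33], a log2 ratio of 1.20 [1.17 to 1.22]. Its direction was the same under every alternative that gave a value, but its size was not. With the summed fragments of Cryaa divided by the summed length of its transcripts, Cryaa stood at 388 FPKM and the log2 ratio was 2.90. With transcripts of under 300 nt left out, a limit chosen after the short transcript was seen, Cryaa stood at 105 FPKM, below Hspb1, and the log2 ratio was 4.79. The log2 ratio of the fragments themselves was 1.32. Which of these is closest to the ratio of the mRNAs was not tested.

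Among the crystallins, the alpha class was the smallest of the 3 by summed level. The alpha crystallins held 23.4% [23.2 to 23.5] of the FPKM of the measured crystallins. The 5 measured beta crystallins, of 6 in the list, held 39.4% and the 6 measured gamma crystallins, of 8, held 37.2%. The unmeasured beta and gamma genes are missing from these shares, so the alpha share would be lower if they were counted. By fragments the alpha share was 14.9% [14.9 to 15.0], the beta share 53.9% and the gamma share 31.1%. By single genes, Cryab was above 10 of the 11 beta and gamma crystallins, all but Crygb (3621 FPKM), and Cryaa was above 6 of them. Crygb also rested on a short transcript, of 200 to 399 nt. The levels of the beta and gamma crystallins were not recomputed with short transcripts left out. By fragments Cryab was above 8 of the 11 and Cryaa above 3. The beta crystallins lay between 502 FPKM for Crybb2 and 2315 FPKM for Cryba4, with Crybb3 at 1802 and Cryba2 at 1410 FPKM. The gamma crystallins lay between 14.4 FPKM for Crygn and the level of Crygb, with Crygc at 1668 and Crygs at 650.2 FPKM.

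The alpha crystallins were also high against transcripts of like length. In the class of named transcripts of 200 to 399 nt the median was 0.699 FPKM, the 95th percentile 66.0 FPKM and the number at FPKM 1000 or above 4 of 618. The Cryab transcript ranked 2 in this class and the short Cryaa transcript ranked 4. Hspb1, at 710 nt, ranked 30 of 1453 in the class of 400 to 799 nt, and the longer Cryaa transcript ranked 92. If 150 nt were subtracted from each transcript as an assumed fragment size, Cryab would stand at 5625 FPKM and Cryaa at 3048 FPKM, whereas Hspb6, on a transcript of 2640 nt, would stand at 26.4 FPKM.

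**Figure D2:**
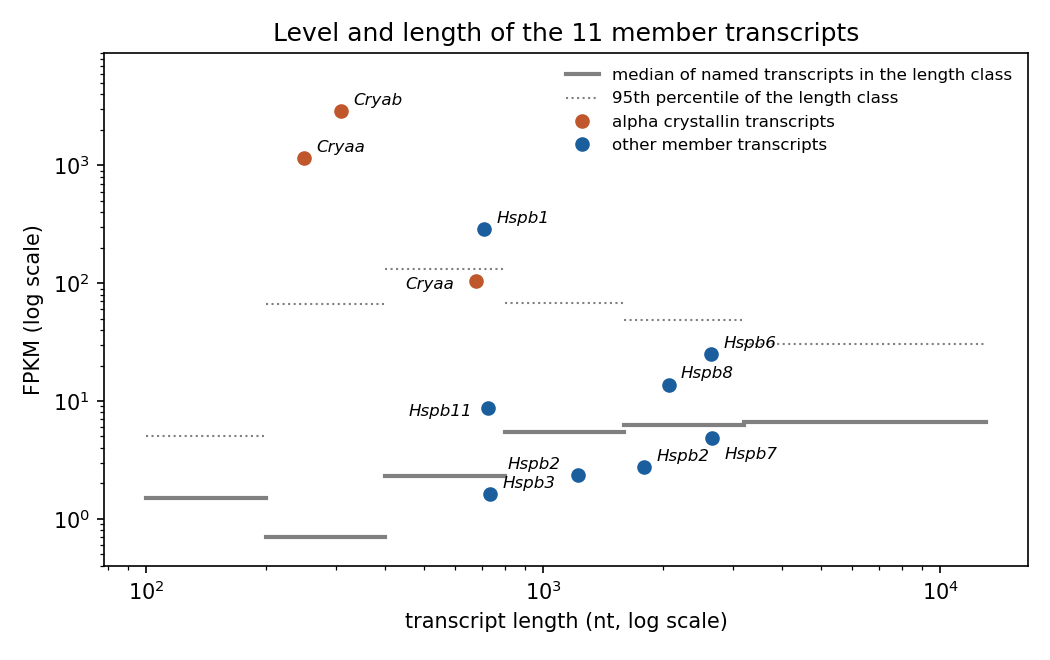
Level (FPKM, log scale) against transcript length (nt, log scale) for the 11 member transcripts. Grey solid and dotted lines give the median and the 95th percentile of all named transcripts in 6 length classes. The transcripts of Cryab (309 nt) and Cryaa (249 nt) and that of Hspb1 (710 nt) lie above the 95th percentile of their class, and those of Hspb2, Hspb3 and Hspb7 lie below the median of theirs.

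Hspb1, the stress-inducible small heat shock protein also called HSP27 or HSP25, was the most abundant member outside the alpha crystallins. It stood at 288 FPKM [283 to 293] on 1 transcript of 710 nt with 13298 estimated fragments, named in all 3 species. It ranked 78 among named genes by FPKM and 265 by fragments. Hspb1 was 10.04-fold [9.85 to 10.2] below Cryab (288 against 2894 FPKM), and 11.6-fold [11.2 to 12.0] above the next member, Hspb6. By FPKM it was also higher than 8 of the 10 measured ATP-dependent chaperones, all but Hspa8 and Hsp90ab1, and by fragments higher than 7. With transcripts of under 500 nt left out, which removed Cryab and the short transcript of Cryaa, Hspb1 was the highest of the 8 remaining members.

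The members best known from muscle were lower than Hspb1 by 11.6-fold or more. Hspb6, or HSP20, which takes part in the relaxation of smooth muscle, stood at 24.9 FPKM [24.1 to 25.6] on 4265.5 estimated fragments, and ranked 1929 by FPKM. Its transcript carried the symbol in the rat column alone. Hspb8, or HSP22, which works with the co-chaperone BAG3 to clear misfolded proteins by autophagy, stood at 13.8 FPKM [13.2 to 14.4], with the symbol in all 3 species. Hspb6 was 1.80-fold [1.71 to 1.90] above Hspb8. Hspb7, also called cvHSP for its expression in the cardiovascular system, stood at 4.85 FPKM [4.53 to 5.19].

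Hspb2 and Hspb3 are muscle small heat shock proteins that form mixed oligomers with each other. Hspb2 summed to 5.10 FPKM [4.66 to 5.58] over one transcript of 1794 nt with the human symbol, at 2.74 FPKM, and another of 1225 nt with the mouse symbol, at 2.37 FPKM. Hspb3 stood at 1.61 FPKM on 77 fragments, the fewest of any member. The ratio of Hspb2 to Hspb3 was 3.16-fold [2.49 to 4.02]. The log2 ratio was 1.66 with the sum of both transcripts of Hspb2 and 0.76 with the higher transcript alone. Hspb2 and Hspb7 could not be ordered: their ratio was 1.05-fold [0.941 to 1.18], and with the higher transcript alone Hspb2 stood at 2.74 FPKM, below Hspb7.

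Hspb2 and Cryab are neighbours in the genome and differed widely in level. In the Nile rat RefSeq annotation (assembly mArvNil1.pat.X) the 2 genes lie next to each other and their spans overlap. Hspb2 was 567-fold [519 to 620] below Cryab, at 5.10 against 2894 FPKM. Its estimated fragments, 507 against 58103.5, came to 0.873% of those of Cryab. No source used here gives the strandedness of the library, and overlap of exons or of transcript sequences was not examined. Whether fragments of Cryab were counted for Hspb2 was not tested. The level of Hspb2 is therefore uncertain, since a small part of the Cryab fragments would equal its whole count. All transcripts of both genes had fractional counts, as had 8 of the 11 member transcripts, which means that fragments were divided between transcripts. The counts of Hspb8, Hspb11 and Hspb3 were whole, as were 60.7% of all transcripts.

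**Figure D3:**
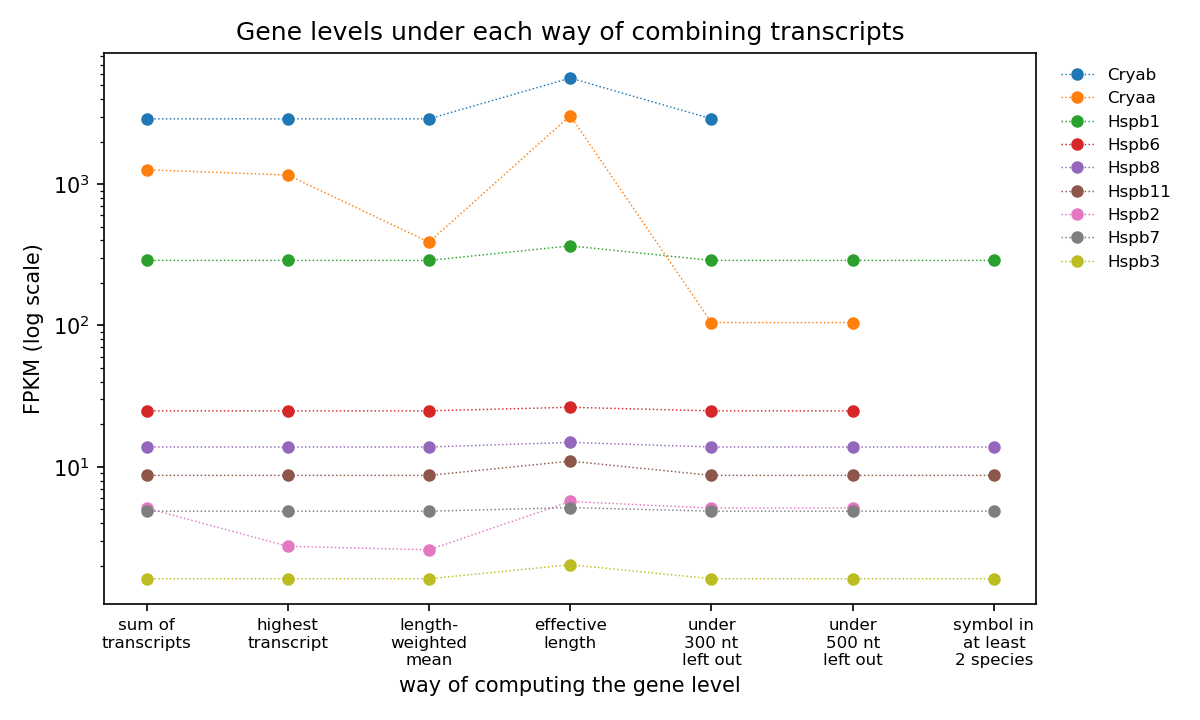
Level of each member (FPKM, log scale) under 7 ways of computing it, with a gap where no transcript of the gene remained. The 9 genes are drawn in separate colours and dotted lines only guide the eye. Cryaa moves between 105 and 3048 FPKM and falls below Hspb1 when transcripts of under 300 or 500 nt are left out. Hspb2 changes place with Hspb7. The 7 genes other than Cryaa and Hspb2 keep their order among themselves.

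Hspb11 carries a small heat shock protein name but is IFT25, a subunit of intraflagellar transport complex B, the train that carries cargo into cilia, including the outer segment cilium of photoreceptors. RefSeq lists the Nile rat gene as Ift25. It stood at 8.70 FPKM [7.87 to 9.58] on 409 fragments and 724 nt. All 14 measured genes of the complex, of 16 in the list, reached FPKM 1, as did 93.2% of all named genes. The median of these 14 was 7.22 FPKM. By FPKM Hspb11 lay within their range, below 5 and above 9 of them, whereas by fragments it was below all 14. Ift46 (19.4 FPKM), Ift20 (18.2 FPKM) and Ift57 (16.2 FPKM) were highest and Ift56 (4.35 FPKM) lowest. Ift27, the small GTPase that binds IFT25, stood at 6.92 FPKM, and Hspb11 was 1.26-fold [1.12 to 1.41] above it. This direction rested on the division by length: by fragments Hspb11 had 409 and Ift27 880.8, a log2 ratio of -1.11. The RefSeq span of the gene also overlaps that of Lrrc42, whose level was 9.44 FPKM.

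Partner genes of the family were compared with the members in the same pool. The lists below were chosen with earlier results of these data known. Of 4 heat shock factors, the transcription factors that bind heat shock elements, 3 were measured. All 3 lay below the median of all named genes, 6.50 FPKM, though Hsf2 was close to it. Hsf2 stood at 5.98, Hsf1 at 2.68 and Hsf4, the factor of the lens, at 2.39 FPKM. Of the lens transcription factors, 11 of 12 genes were measured and 10 reached FPKM 1, as did 93.2% of all named genes. Their median was 4.68 FPKM. Pax6 (92.3 FPKM), Prox1 (11.3 FPKM) and Sox2 (10.4 FPKM) were highest and Gata3 (0.939 FPKM) lowest. Levels of mRNA do not measure the activity of these factors. Hspbap1, which encodes an HSPB1-associated protein, stood at 6.44 FPKM. Hspb9 and Odf1, relatives known from testis, were not analysed here, as their symbols were on none of the transcripts.

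Hspb8 was close to its partner Bag3. Hspb8 stood at 13.8 FPKM and Bag3 at 15.7 FPKM [15.1 to 16.4], a log2 ratio of -0.19 [-0.27 to -0.10]. Of the 6 pairs examined this ratio was the closest to 1, and it had the same sign by fragments (-0.47). Of a list drawn up around HSPB8 and BAG3, which also holds the related genes Bag1 and Bag2, 7 of 10 genes were measured. Their median was 68.9 FPKM. Hspa8 (423 FPKM), the constitutive HSP70, the autophagy receptor Sqstm1 (230.1 FPKM) and Bag1 (77.0 FPKM) were highest and Bag2 (6.07 FPKM) lowest. Of the ATP-dependent chaperones, 10 of 14 genes were measured and all 10 reached FPKM 10, against 34.0% of all named genes. Their median was 68.0 FPKM. Behind Hspa8 came Hsp90ab1 (400.0 FPKM) and Hsp90aa1 (186 FPKM), and Hsph1 (15.2 FPKM) was lowest. The 9 family members summed to 4505 FPKM and these 10 chaperones to 1301 FPKM, but by fragments the order was reversed, at 102693 for the family and 205354 for the chaperones.

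Filament proteins that small heat shock proteins bind were present over a wide range. The list had 10 of 12 genes measured and a median of 14.4 FPKM. Lens beaded filament genes Bfsp1 (931 FPKM) and Bfsp2 (319 FPKM) were highest, followed by the neurofilament gene Nefl (98.9 FPKM). Vim, the vimentin of lens and glia, stood at 84.3 FPKM and Des, the desmin of muscle, at 16.6 FPKM. Flnc, a muscle filamin handled by BAG3 and HSPB8, was lowest at 2.36 FPKM.

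Genes of lens, muscle, glia, retina and cornea were all measured in the pool, and the levels above cannot be given to one tissue. Heart and vessel genes were not looked up. All 13 other lens fibre genes were measured, with a median of 24.6 FPKM and a sum of 4369 FPKM. Grifin (1528 FPKM), Lgsn (1063 FPKM) and Bfsp1 were highest and Dnase2b (4.28 FPKM) lowest. Of the skeletal muscle list, 10 of 13 genes had a value. Their median was 46.3 FPKM and their sum 593 FPKM. Tnnc2 (174 FPKM), Mb (127 FPKM) and Mylpf (78.4 FPKM) were highest and Actn3 (2.64 FPKM) lowest. The 6 lowest members together summed to 58.9 FPKM, against that sum for the muscle genes. Of the smooth muscle list, 5 of 8 genes were measured, with a median of 7.29 FPKM, led by Myl9 (77.6 FPKM), Des and Lmod1 (7.29 FPKM), with Smtn (3.74 FPKM) lowest. The planned smooth muscle markers Acta2, Myh11 and Tagln are not among these 5 genes, so the median leaves them out.

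All 8 glial genes were measured, with a median of 82.0 FPKM. Rlbp1 (432 FPKM), Clu (386 FPKM) and S100b (85.9 FPKM) were highest and Gfap (7.14 FPKM) lowest. The 8 photoreceptor genes had a median of 164 FPKM, with Gnat1 (344 FPKM), Pdc (332 FPKM) and Prph2 (328 FPKM) highest and Rcvrn (47.5 FPKM) lowest. The pigment epithelium list (5 of 6 measured) had a median of 102 FPKM, led by Rpe65 (238 FPKM), Rgr (128 FPKM) and Ttr (102 FPKM), with Lrat (26.9 FPKM) lowest. The cornea list (5 of 7 measured) had a median of 62.2 FPKM, led by Tkt (220.4 FPKM), Krt12 (91.0 FPKM) and Lum (62.2 FPKM), with Krt14 (40.2 FPKM) lowest. The part of each tissue in the level of any member was not tested. Hsf4, Hspa8, Bfsp1, Bfsp2, Vim, Des and Gfap each stand in 2 of the lists.

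**Figure D4:**
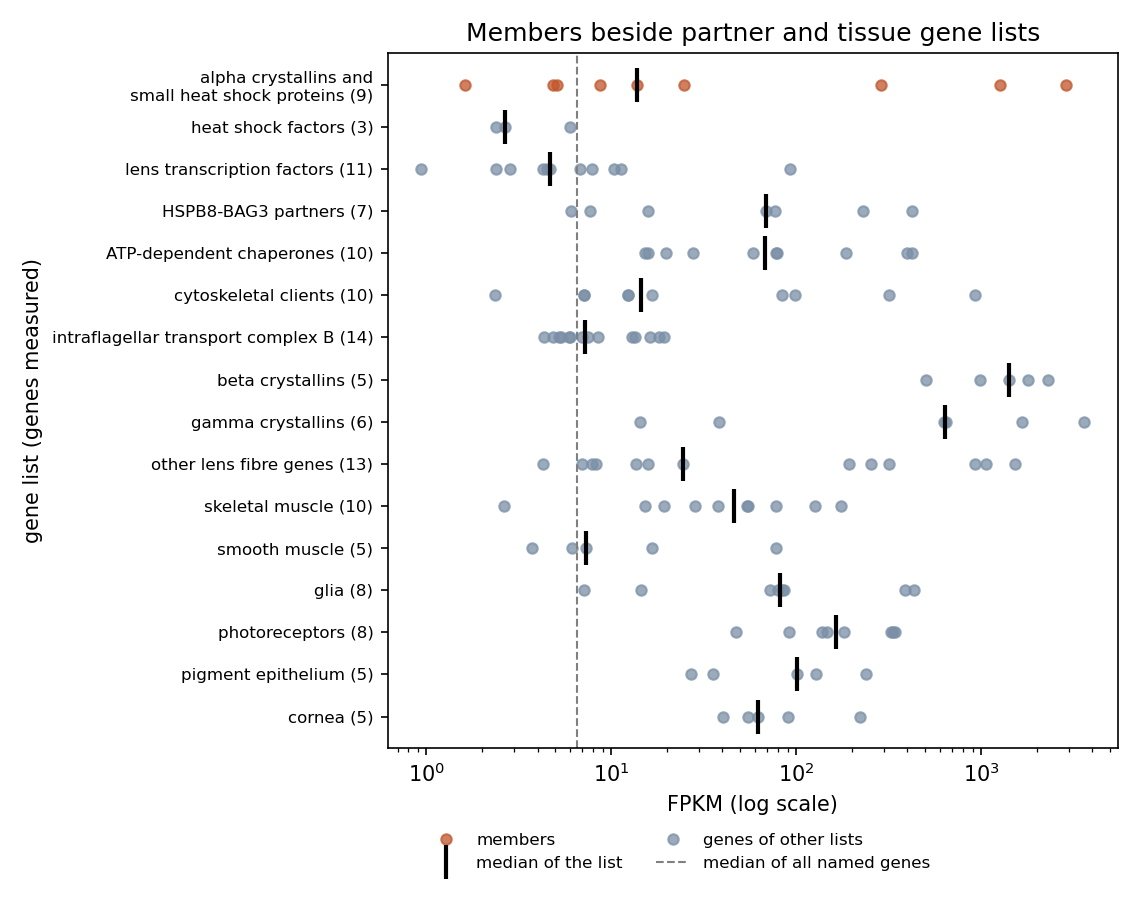
FPKM (log scale) of the 9 members in the top row and of the genes of 15 partner and tissue lists below, with the number of genes measured in brackets. Black bars mark the median of each list and the dashed line the median of all named genes, 6.50 FPKM. The members spread from 1.61 to 2894 FPKM. Some of the beta and gamma crystallins (Cryba4, Crybb3, Cryba2, Crygb and Crygc) share the region of the alpha crystallins above 1000 FPKM. Of the other genes drawn, only the lens fibre genes Grifin and Lgsn do so.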

How the data were processed

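RNA of Nile rat eyes was measured by sequencing in 1 pool. FPKM and estimated counts of fragments per transcript were deposited by the authors, and per the file headers the total of mapped fragments is 64967222. The estimated count deposited by the authors is not scaled for length or depth and was fractional for 39.3% of 124439 transcripts. Per the submitters' processing notes Bowtie was used. Its version, the assembly method and any genome build are not named in the sources used here. Dividing the count by length and total gave the FPKM of each of the 124299 transcripts above 0 fragments (relative tolerance 1e-05), so no correction for fragment size was made.

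Ortholog names deposited by the authors gave 15454 named transcripts. For members and lists a symbol in any species column counted. For all named genes the first symbol in the order mouse, rat, human counted, and symbols differed between species on 2586 transcripts. Named transcripts took 47.2% of fragments and 18.0% of FPKM, so pieces of the members may lie among transcripts without a symbol. At FPKM 1 a transcript of 1000 nt holds 65.0 fragments. Gene levels carry 95% gamma (Fay-Feuer) intervals, and log2 ratios and shares delta-method Poisson intervals. They cover counting error only, and PCR copies are not independent molecules. Interval coverage was tried only on simulated Poisson counts drawn around the observed counts, which is the setting the intervals assume. The simulation left out the division of fragments between transcripts, so it cannot show coverage for the fractional counts. RefSeq symbols matched 8 members, and Hspb11 is listed there as Ift25. RefSeq was used for names and neighbours only.

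The members, lists and pairs were chosen with earlier results of these data known. Genes named are all members, the partners of the 6 pairs, Hspb9, Odf1, Hspbap1, Hsf1, Hsf2, Hsf4, Vim, Des, Flnc, Bfsp1 and Bfsp2, and the 3 highest and the lowest gene of each list. Acta2, Myh11 and Tagln are named as planned smooth muscle markers that are not among the measured genes of that list. The genomic neighbours were named after values were seen. Older symbols were used for Ift22, Ift27, Ift54, Ift56 and Ift70b. Likeness of pattern over samples could not be computed from 1 column. A list gene with an incomplete set of transcripts is not reported here. Planned protein identities, promoter motifs and coding lengths were not computed, because no sequences were used here. Alternatives are given in the closing section. Figures were drawn with Matplotlib 3.10.9 and values computed with SciPy 1.17.1, pandas 2.3.3 and NumPy 2.4.6 in Python 3.11.15.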

Additional observations from a re-analysis of the deposited data

How the results depend on the processing

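All 9 members were detected at FPKM 0.5 (99.0% of named genes) and with any fragment (100%), and 7 at FPKM 5 (59.8%). With the highest transcript per gene, the log2 ratio was 1.32 for Cryab over Cryaa, -10.05 for Hspb2 over Cryab and 0.76 for Hspb2 over Hspb3, and the family share was 1.87%. With a length-weighted mean these values were 2.90, -10.13, 0.68 and 1.60%. Without transcripts of under 500 nt the share was 0.207% and the median level 11.3 FPKM, and no ratio with Cryab could be had. With an effective length, the log2 ratios were 0.88 for Cryab over Cryaa, -3.94 for Hspb1 over Cryab, -9.95 for Hspb2 over Cryab and 0.55 for Hspb11 over Ift27, with a share of 3.08% and a median of 14.9 FPKM. Rescaling to a sum of 1000000 gave a median of 10.1. With fragments, the log2 ratios were 1.32 for Cryab over Cryaa, -2.13 for Hspb1 over Cryab, -6.84 for Hspb2 over Cryab, 2.72 for Hspb2 over Hspb3, -0.47 for Hspb8 over Bag3 and -1.11 for Hspb11 over Ift27, which reversed, and the share was 0.326%. The Hspb11 transcript has 724 nt. Names in at least 2 species kept 5 members, Hspb1, Hspb8, Hspb11, Hspb7 and Hspb3, with a share of 0.216% and a median of 8.70 FPKM. Both alpha crystallins were lost under this rule, and Hspb1 was the highest member left. Without transcripts of under 300 nt, chosen after seeing the data, Cryab over Cryaa was 4.79 and the share 1.38%. A pseudocount of 1 FPKM gave -8.89 for Hspb2 over Cryab and 1.22 for Hspb2 over Hspb3. The first-symbol rule changed no value, and shared Ensembl identifiers added 0 transcripts. Leaving out each sample in turn was not run because the table has 1 column. No paired analysis was possible because the labels give 1 group. The short transcripts of the alpha crystallins limit their levels more than depth does, and Hspb3, on 77 fragments, has the widest relative interval.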

Other observations

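The coding genes next to the members in the RefSeq annotation were looked up in the pool, a choice made after the values of the members were seen. Of 16 such neighbours outside the family, 9 carried a symbol on a transcript, and 6 of these were lower than their member. Of all named genes, 99.9% were below Cryaa, 99.4% below Hspb1 and 75.2% below Hspb8. The shares were 61.1% for Hspb11, 86.2% for Hspb6 and 12.8% for Hspb3, so the count says little about the neighbours. Cryaa lies between Sik1, a kinase gene at 2.57 FPKM [2.34 to 2.83], and U2af1, a splicing factor gene at 51.1 FPKM [49.4 to 52.9], against its own 1263 FPKM. Hspb1 lies between Srrm3 (8.89 FPKM) and Ywhag, a 14-3-3 gene at 56.5 FPKM, against its own 288 FPKM. Hspb8 stood at 13.8 FPKM beside Srrm4, a neural splicing gene, at 2.96 FPKM. Hspb11, at 8.70 FPKM, lies beside Dio1 at 0.917 FPKM and overlaps Lrrc42 at 9.44 FPKM. The ratio of Hspb11 to Lrrc42 was 0.922-fold [0.822 to 1.03], so these could not be ordered. The neighbours above their members beyond counting error were Lin37, where Hspb6 stood at 24.9 and Lin37 at 43.5 FPKM, and Snx18, where Hspb3 stood at 1.61 and Snx18 at 9.22 FPKM. The RefSeq span of Hspb6 overlaps that of Proser3, which no symbol named in the pool. Whether the 2640 nt transcript of Hspb6 holds fragments of Proser3 was not tested.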
